A study of Mus musculus with 20 samples.

Results

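The tumour necrosis factor (TNF) superfamily was followed through 5 populations sorted from mouse dorsal epidermis and profiled by RNA-seq. Its members were taken by name: every gene of the table called Tnfsf or Tnfrsf followed by a number, together with *Tnf*, *Lta*, *Ltb*, *Ltbr*, *Fas*, *Cd40*, *Cd40lg*, *Cd27*, *Cd70*, *Ngfr*, *Eda*, *Edar* and *Eda2r*. The rule matched 45 of the 53380 genes, namely 17 ligands, 27 receptors and the antisense transcript *Tnfsf13os*. Of these, 35 (12 ligands and 23 receptors) reached a normalised read count of at least 10 in at least 3 of the 20 libraries and were tested.

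Ligands of this superfamily are made as membrane proteins that assemble into trimers, many of which can be shed, and they cluster their receptors on a neighbouring cell. Receptors with an intracellular death domain, such as *Fas* and *Tnfrsf1a*, can recruit caspases, while those that bind TRAF adaptors activate NF-kappaB; a few receptors are decoys that bind a ligand and pass on no signal. In skin, the family is known for ectodysplasin signalling in hair follicle formation, for TNF in inflammation and for co-stimulation of T cells.

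Dendritic epidermal T cells (DETCs, the γδ T cells that reside in mouse epidermis) were sorted as Thy1+ Sca1- cells and gave 5 libraries. Hair follicle stem cells (HFSCs), sorted as CD34+ Sca1- cells, gave 4. Basal keratinocytes of the interfollicular epidermis were sorted by Sca1 into Thy1hi and Thy1- cells, with 4 libraries each, and 3 further libraries held Thy1hi cells that were YFP+. The labels give all 20 samples the genotype Thy1.2CreERT2-Rosa26-EYFP, in which a Thy1 promoter drives an inducible Cre that switches on YFP, and no treatment, whereas the study's methods describe wild-type C57BL/6J mice for the sort and tamoxifen to induce the Cre. Mice are 8 weeks old by the design text, while the labelled ages rise from 8 to 27 weeks over the samples. The cell type label of the YFP+ samples reads Sca1-, against Sca1+ in their titles. By the figure legends, the sort was made on 5 pooled mice, while the legend of the expression heatmap counts 4 mice for DETCs and 5 for HFSCs, where 5 and 4 libraries are labelled. How mice correspond to libraries, and which of the 2 batches and library kits each sample belongs to, is not given in the sources used here, so a p-value below measures the spread between libraries and batch was not modelled.

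Library depth was 7781256 to 12982393 reads on genes. The normalised read counts are reads divided by 1 size factor per library, and without molecular identifiers this depth limits counting error only. The summed count of 4 T cell markers (*Cd3e*, *Cd3g*, *Cd2*, *Ptprc*) ran from 13950 to 31140 in the DETC libraries and from 61.7 to 288 in the other 16. The DETC libraries also held keratinocyte RNA, with 9566 to 44710 for 4 basal keratins and adhesion genes (*Krt5*, *Krt14*, *Itga6*, *Col17a1*) against 45870 to 250500 in the others. The lowest of these 5 sums was that of DETC a, and HFSC 4 stood apart in its Langerhans cell markers (140.8, against a median of 3031 over the HFSC libraries). HFSC 4 also held the basal sum of 45870, the lowest outside DETCs. Its share of reads on the ribosomal RNA gene *Rn45s* was 13.1%, beside 38.3% to 41.5% in the other HFSC libraries. One column, Thy1- replicate 4, was deposited in another row order and was put back (see *Ngfr*).

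Counts are listed below in the order of replicates 1, 2, 3, a and b for DETCs, where a and b are the libraries whose numbers match no label, and in the order of the replicate numbers elsewhere. A difference was called where the limma adjusted p was under 0.05 over all 17204 genes tested, on log2(normalised read count + 1). Log2 fold changes are given ± standard error.

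**Figure D1:**
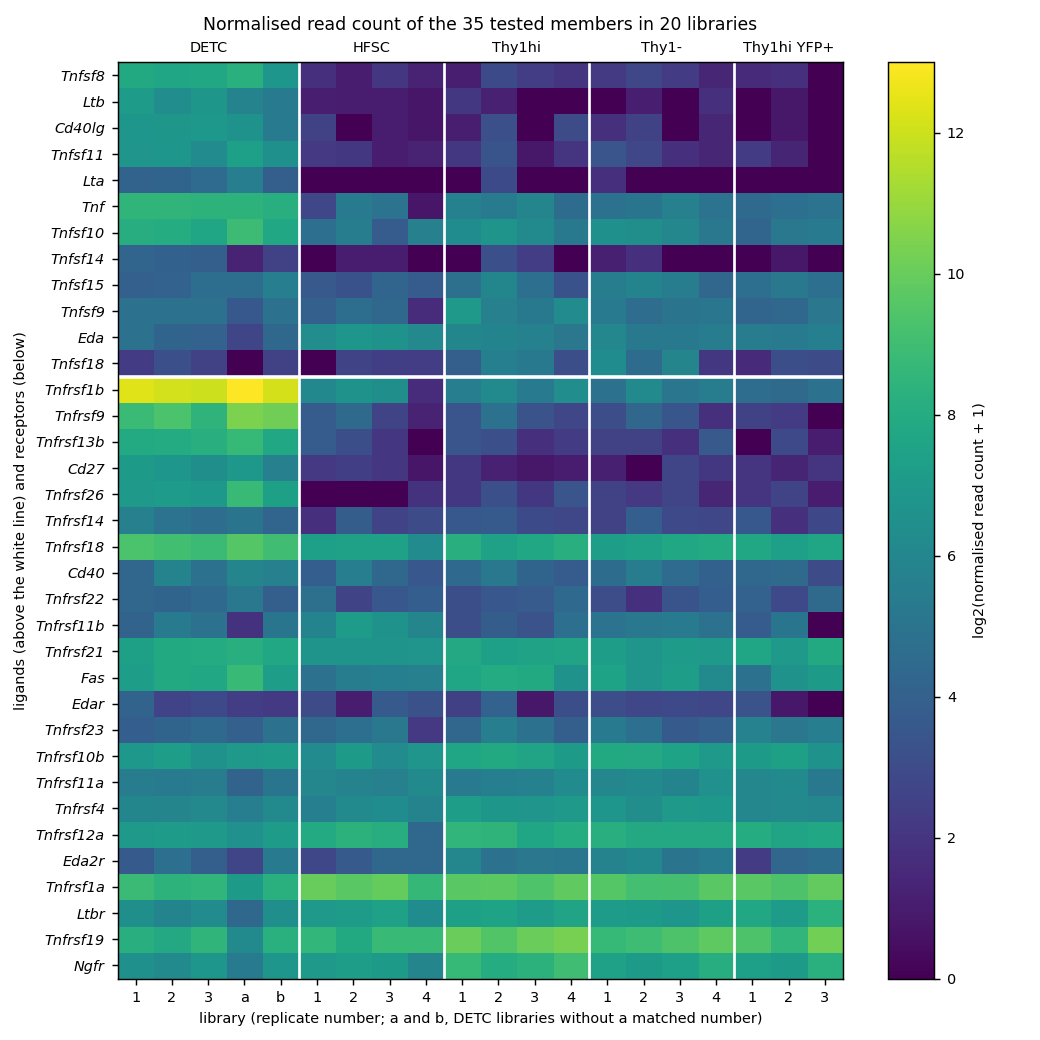
Normalised read counts of the 35 tested members (rows; ligands above, receptors below the white line) in each of the 20 libraries (columns, by population), as log2(normalised read count + 1). *Tnfrsf1b* in the DETC libraries is the brightest row, and *Lta* stands at 0 in all HFSC and Thy1hi YFP+ libraries.

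Most of the tested members were read most deeply in the T cells, in part through the filter. Of the 35 tested members, 19 (54.3%) had their highest mean in DETCs, beside 30.3% of all genes tested, 7 in Thy1hi cells, 5 in Thy1- cells and 2 each in HFSCs and Thy1hi YFP+ cells. *Cd27*, *Cd40lg*, *Lta*, *Ltb*, *Tnfrsf13b*, *Tnfrsf26*, *Tnfsf8*, *Tnfsf11* and *Tnfsf14* passed the filter only through their DETC libraries, which fixed their place among the 19. Summed over the 17 ligands, the normalised read count was 936 to 1538 in the DETC libraries and 137 to 410 in the other 16. Per kilobase of exon, the leading ligand was *Tnf* in DETCs (206 ± 18.9, SD, n = 5) and *Tnfsf9* in Thy1hi cells (55.6 ± 29.6, n = 4) and Thy1- cells (24.7 ± 4.65, n = 4). In HFSCs no ligand led beyond the spread: *Eda* (13.1 ± 2.72, n = 4), *Tnfsf9* (11.9 ± 7.54) and *Tnf* (11.3 ± 11.1) stood at 14.2 ± 2.11, 15.3 ± 3.88 and 15.0 ± 10.2 without HFSC 4 (n = 3). Among receptors on the same scale, *Tnfrsf1a* led in HFSCs (309 ± 107), Thy1hi cells (313 ± 32.9), Thy1- cells (259 ± 49.5) and Thy1hi YFP+ cells (311 ± 57.4, n = 3), and *Tnfrsf1b* led in DETCs (1389 ± 433). In a bulk library, fewer cells of a type and less RNA per cell cannot be told apart.

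Against Thy1hi cells, 22 of the 35 members were called in DETCs, 14 higher and 8 lower, beside 36.6% of all genes tested (19.9% higher, 16.6% lower). Against Thy1- cells 26 were called, 17 higher and 9 lower, beside 34.1% of all genes (18.9% and 15.2%). Against HFSCs 22 were called, 17 higher and 5 lower, beside 39.7% (21.2% and 18.5%). The libraries did not overlap in 14 members higher and 8 lower against Thy1hi cells (18.8% and 14.4% of all genes), 16 and 8 against Thy1- cells (18.2% and 12.7%) and 17 and 3 against HFSCs (18.6% and 13.8%). The 3 comparisons share the 5 DETC libraries. The median log2 fold change of the members was 0.52, 0.80 and 0.96 in that order, where the medians of all genes tested lay between -0.09 and 0.02. Without DETC 2 the first of these was 0.27. Of the members, 14 were higher in DETCs in all 3 comparisons, 7 ligands and 7 receptors, and 3 were lower in all 3. Apart from *Tnfsf14*, all members that passed the filter only through DETC libraries are among the 14. The filter thus favoured a rise in DETCs in these counts and medians.

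**Figure D2:**
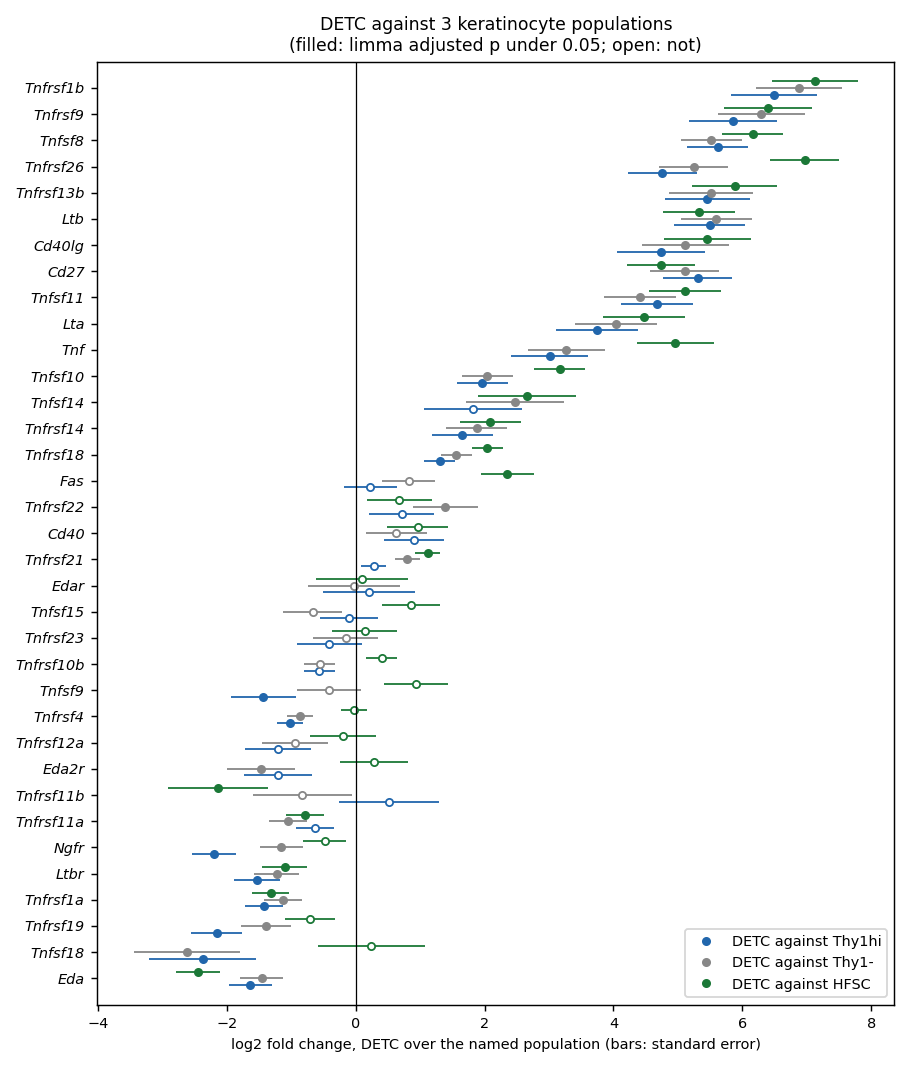
Log2 fold change of each tested member in DETCs over Thy1hi cells (blue), Thy1- cells (grey) and HFSCs (green), with standard errors; filled points passed the limma threshold of 0.05. *Tnfrsf1b* lies furthest to the right in all 3 comparisons, and *Eda*, *Tnfrsf1a* and *Ltbr* are filled to the left of 0 in all 3 comparisons.

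Among the 7 ligands higher in DETCs are 3 neighbours on chromosome 17: *Ltb* (chr17:35194439-35196320, mm10), *Tnf* (chr17:35199381-35202007) and *Lta* (chr17:35203165-35205351), the genes of the membrane-anchoring lymphotoxin subunit, of TNF and of the secreted lymphotoxin subunit. *Tnf* and *Lta* lie on the minus strand and *Ltb* on the plus strand. Of the 250 bases before each RefSeq transcript start (GRCm38.p6, the genome of mm10), those outside annotated exons are printed because these genes were called together. They run 5′ to 3′ on the strand of the gene, with motif matches in capitals.
Ltb, chr17:35194257-35194438, plus strand: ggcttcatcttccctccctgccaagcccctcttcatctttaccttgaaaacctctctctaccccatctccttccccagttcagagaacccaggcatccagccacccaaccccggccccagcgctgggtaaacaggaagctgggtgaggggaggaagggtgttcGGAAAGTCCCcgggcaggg
Tnf, chr17:35202008-35202257, minus strand: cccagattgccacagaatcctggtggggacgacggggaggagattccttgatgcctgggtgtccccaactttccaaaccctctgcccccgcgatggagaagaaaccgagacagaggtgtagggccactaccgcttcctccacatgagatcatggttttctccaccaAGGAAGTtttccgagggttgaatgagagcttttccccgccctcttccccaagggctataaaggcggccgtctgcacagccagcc
Lta, chr17:35205352-35205601, minus strand: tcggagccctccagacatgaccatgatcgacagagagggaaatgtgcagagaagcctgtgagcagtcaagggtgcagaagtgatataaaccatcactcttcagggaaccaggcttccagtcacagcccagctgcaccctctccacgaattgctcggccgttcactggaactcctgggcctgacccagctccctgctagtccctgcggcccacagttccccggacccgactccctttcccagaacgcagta
The letters searched on both strands were GGG and TTCC separated by any 3 bases for NF-kappaB, TGANTCA for AP-1, TGTGGT for RUNX and AGGAAGT for ETS factors. The window of *Ltb* holds the NF-kappaB letters, as do 4.65% of all 32851 windows of this length, and that of *Tnf* holds the ETS letters, as do 7.69%. None of the 4 motifs is in the *Lta* window. A window was found for 34 of the 45 members, and of the 12 with a window that were higher in DETCs in all 3 comparisons, 1 held the NF-kappaB letters, 2 the ETS letters and 0 the AP-1 or RUNX letters (6.75% and 14% of all windows). A match is a run of letters and says nothing of binding in these cells.

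*Tnf*, the founding ligand of the family, had normalised read counts of 359, 366, 339.9, 338 and 287 in DETCs, 5.77, 38.0, 29.9 and 0.700 in HFSCs, 50.8, 39.5, 59.3 and 23.3 in Thy1hi cells, 28.0, 32.4, 48.9 and 30.3 in Thy1- cells and 20.9, 26.3 and 29.7 in Thy1hi YFP+ cells. Every DETC library exceeded every other library. The log2 fold change was 3.01 ± 0.60 over Thy1hi cells (limma adjusted p = 4.41e-04), 3.27 ± 0.60 over Thy1- cells (2.41e-04) and 4.96 ± 0.60 over HFSCs (1.35e-06). For *Lta* the counts were 16.6, 17.3, 22.1, 46.6 and 14.4 in DETCs, 0, 0, 0 and 0 in HFSCs, 0, 6.59, 0 and 0 in Thy1hi cells, 2.43, 0, 0 and 0 in Thy1- cells and 0, 0 and 0 in Thy1hi YFP+ cells. No read fell on it in 4 HFSC and 3 Thy1hi YFP+ libraries. Against a floor of 3 reads over the population, its DETC mean of 23.4 was at least 32.4-fold higher than in HFSCs and at least 25.8-fold higher than in Thy1hi YFP+ cells, and it was called over Thy1hi cells (log2 fold change 3.75 ± 0.64, limma adjusted p = 8.71e-05) and Thy1- cells (4.03 ± 0.64, 4.78e-05). *Ltb* had 142, 81.3, 115, 54.9 and 42.0 in DETCs, 1.15, 1.09, 1.07 and 0.700 in HFSCs, 3.31, 1.32, 0 and 0 in Thy1hi cells, 0, 1.16, 0 and 2.46 in Thy1- cells and 0, 0.770 and 0 in Thy1hi YFP+ cells. Its DETC counts stood apart from all others, by 5.49 ± 0.56 over Thy1hi cells, 5.60 ± 0.56 over Thy1- cells and 5.33 ± 0.56 over HFSCs on the log2 scale (limma adjusted p = 1.30e-07, 1.05e-07 and 1.96e-07). The keratinocyte counts of *Lta* and *Ltb* rest on at most 5 reads in a population, so the fold changes of these genes depend on the pseudocount of 1.

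The ligand *Cd40lg*, with which activated T cells engage CD40, had 114, 118, 120.2, 98.8 and 40.8 in DETCs, 4.62, 0, 1.07 and 0.700 in HFSCs, 1.10, 7.90, 0 and 6.79 in Thy1hi cells, 2.43, 4.63, 0 and 1.64 in Thy1- cells and 0, 0.770 and 0 in Thy1hi YFP+ cells. All DETC libraries were higher than the rest. *Tnfsf8*, the CD30 ligand, had 237, 207, 218, 303 and 113 in DETCs, 2.31, 1.09, 3.21 and 1.40 in HFSCs, 1.10, 6.59, 4.06 and 2.91 in Thy1hi cells, 3.65, 5.79, 3.94 and 1.64 in Thy1- cells and 1.99, 2.32 and 0 in Thy1hi YFP+ cells, and *Tnfsf11*, the ligand known as RANKL, had 109, 112, 75.9, 159 and 92.5 in DETCs, 3.46, 3.26, 1.07 and 1.40 in HFSCs, 3.31, 9.22, 0.810 and 2.91 in Thy1hi cells, 9.73, 5.79, 2.37 and 1.64 in Thy1- cells and 3.99, 1.55 and 0 in Thy1hi YFP+ cells. In both, no DETC library overlapped another population. Over Thy1hi cells, Thy1- cells and HFSCs, the log2 fold change was 4.74 ± 0.68, 5.12 ± 0.68 and 5.46 ± 0.68 for *Cd40lg*, 5.62 ± 0.47, 5.52 ± 0.47 and 6.16 ± 0.47 for *Tnfsf8*, and 4.67 ± 0.56, 4.41 ± 0.56 and 5.11 ± 0.56 for *Tnfsf11*. The largest limma adjusted p among these 9 differences was 1.19e-05. Outside DETCs the counts of these 3 ligands were low, so their fold changes depend on the pseudocount of 1. *Tnfsf10*, the death ligand TRAIL, differed less, with 272, 260.3, 197, 475 and 216 in DETCs, 25.4, 43.4, 12.8 and 50.5 in HFSCs, 78.4, 105, 69.9 and 37.8 in Thy1hi cells, 91.2, 84.5, 63.1 and 36.1 in Thy1- cells and 17.9, 36.4 and 40.6 in Thy1hi YFP+ cells. Its log2 fold change was 1.96 ± 0.40 over Thy1hi cells (limma adjusted p = 5.20e-04), 2.04 ± 0.40 over Thy1- cells (4.40e-04) and 3.16 ± 0.40 over HFSCs (2.24e-06), again with no overlap.

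Among receptors, the largest difference in all 3 comparisons was that of *Tnfrsf1b* (ENSMUSG00000028599.10, chr4:145213463-145246870), the TNF receptor that lacks a death domain. Its normalised read counts were 5216, 4338, 4166, 8173 and 4623 in DETCs, 65.8, 96.7, 88.7 and 2.10 in HFSCs, 46.4, 69.8, 38.2 and 80.5 in Thy1hi cells, 29.2, 74.0, 33.9 and 45.1 in Thy1- cells and 23.9, 21.7 and 27.7 in Thy1hi YFP+ cells. DETCs were higher by 6.49 ± 0.67 on the log2 scale over Thy1hi cells (limma adjusted p = 1.73e-07), 6.88 ± 0.67 over Thy1- cells (8.09e-08) and 7.13 ± 0.67 over HFSCs (4.76e-08). *Tnfrsf1a* (ENSMUSG00000030341.17, chr6:125349362-125362484), the TNF receptor with the death domain, ran the other way, with 461, 343, 381, 136 and 304 in DETCs, 1008, 821, 967 and 402 in HFSCs, 822, 842, 691 and 891 in Thy1hi cells, 758, 546, 574 and 801 in Thy1- cells and 822, 651 and 947 in Thy1hi YFP+ cells. It was lower in DETCs, with log2 fold changes of -1.42 ± 0.29 against Thy1hi cells (limma adjusted p = 6.27e-04), -1.13 ± 0.29 against Thy1- cells (0.00492) and -1.32 ± 0.29 against HFSCs (0.00123), with overlap only between DETCs and HFSC 4. Per kilobase of exon, the ratio of *Tnfrsf1b* to *Tnfrsf1a* was 7.42 to 40.8 in the DETC libraries (median 8.59) and 0.00354 to 0.092 in the other 16.

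The sequences before the RefSeq starts of the 2 TNF receptor genes are printed, again outside exons, because their counts ran in opposite directions. The stretch of *Tnfrsf1a* lies within the gene span given above, downstream of its first annotated base. That of *Tnfrsf1b* adjoins its gene span from outside, so the 2 stretches are not alike in position. In neither window is there a match to the 4 motifs.
Tnfrsf1b, chr4:145246871-145247120, minus strand: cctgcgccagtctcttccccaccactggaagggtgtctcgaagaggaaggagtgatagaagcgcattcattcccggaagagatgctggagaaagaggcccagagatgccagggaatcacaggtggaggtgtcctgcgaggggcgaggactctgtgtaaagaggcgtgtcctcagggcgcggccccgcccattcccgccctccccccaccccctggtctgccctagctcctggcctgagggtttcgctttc
Tnfrsf1a, chr6:125349509-125349722, plus strand: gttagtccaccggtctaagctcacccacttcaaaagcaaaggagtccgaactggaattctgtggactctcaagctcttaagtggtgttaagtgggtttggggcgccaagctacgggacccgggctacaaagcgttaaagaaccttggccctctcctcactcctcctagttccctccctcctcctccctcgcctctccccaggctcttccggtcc

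**Figure D3:**
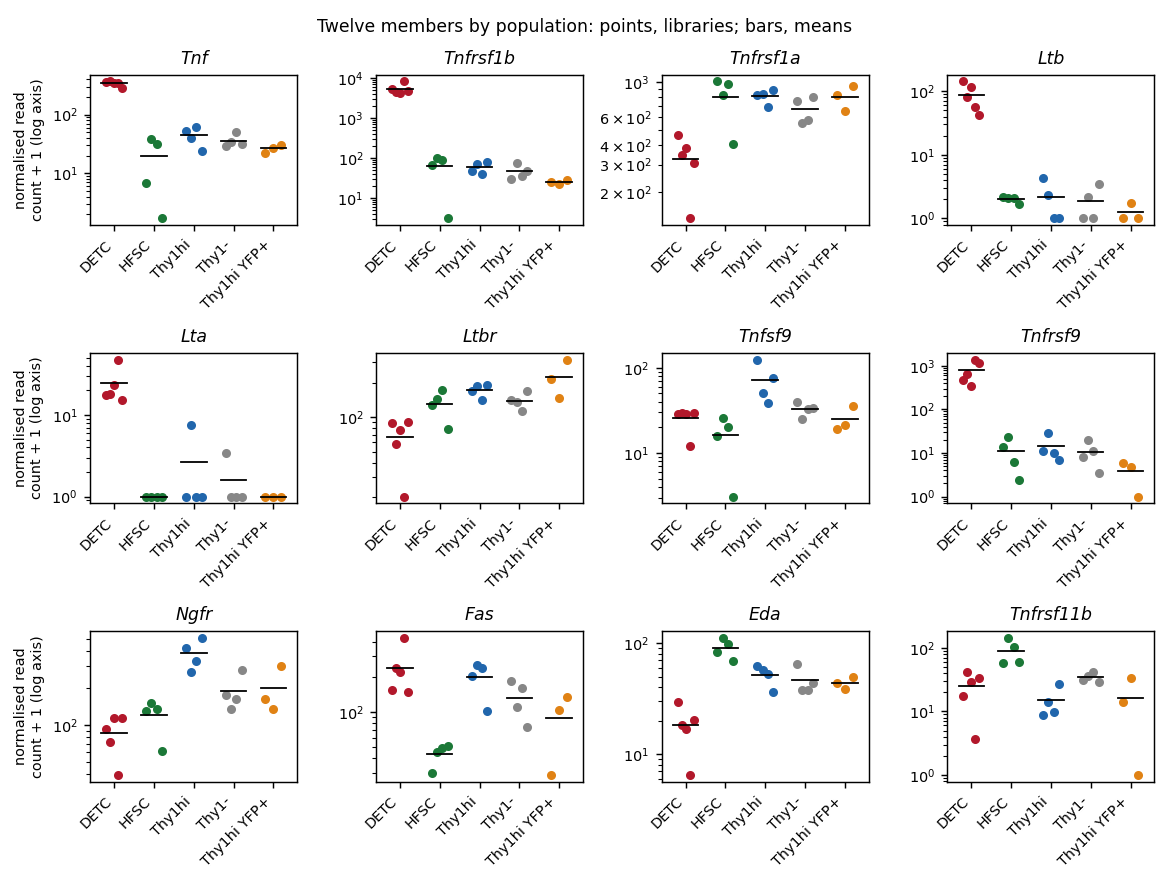
Normalised read count + 1 (log axis) of 12 members, with 1 point per library and a bar at the population mean. *Tnf*, *Tnfrsf1b*, *Ltb*, *Lta* and *Tnfrsf9* separate the DETC libraries from all others, *Tnfrsf1a* and *Ltbr* are lowest in DETC a, and *Eda* and *Tnfrsf11b* are highest in HFSCs.

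*Tnfrsf9*, a co-stimulatory receptor of activated T cells (chr4:150914562-150946102), had 467, 637, 345, 1386 and 1173 in DETCs, 12.7, 21.7, 5.35 and 1.40 in HFSCs, 9.94, 27.7, 8.94 and 5.82 in Thy1hi cells, 7.30, 18.5, 10.2 and 2.46 in Thy1- cells and 4.98, 3.87 and 0 in Thy1hi YFP+ cells. The DETC libraries themselves spread 4-fold, yet the lowest was above every other library. *Tnfrsf13b*, the receptor TACI for the ligands BAFF and APRIL, had 246, 253, 293, 414 and 219.8 in DETCs, 12.7, 7.60, 3.21 and 0 in HFSCs, 9.94, 7.90, 2.44 and 3.88 in Thy1hi cells, 4.86, 4.63, 2.37 and 11.5 in Thy1- cells and 0, 6.19 and 0.990 in Thy1hi YFP+ cells. *Cd27*, the co-stimulatory receptor for *Cd70*, had 135, 112, 88.5, 121 and 49.2 in DETCs, 3.46, 4.34, 3.21 and 0.700 in HFSCs, 3.31, 1.32, 0.810 and 0.970 in Thy1hi cells, 1.22, 0, 5.52 and 3.28 in Thy1- cells and 2.99, 1.55 and 2.97 in Thy1hi YFP+ cells. For *Tnfrsf9* the log2 fold change was 5.86 ± 0.68 over Thy1hi cells, 6.29 ± 0.68 over Thy1- cells and 6.40 ± 0.68 over HFSCs, for *Tnfrsf13b* 5.46 ± 0.66, 5.51 ± 0.66 and 5.88 ± 0.66, and for *Cd27* 5.30 ± 0.53, 5.11 ± 0.53 and 4.74 ± 0.53 (largest limma adjusted p of the 9, 1.38e-06). All 3 receptors had DETC libraries apart from every other library. Of their ligands, *Cd70*, *Tnfsf13* and *Tnfsf13b* failed the filter on low counts, while *Tnfsf9* passed it.

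*Tnfrsf26*, which lies beside *Tnfrsf22* and *Tnfrsf23* on chromosome 7, had 126.2, 142, 119, 446 and 166 in DETCs, 0, 0, 0 and 2.80 in HFSCs, 3.31, 7.90, 3.25 and 9.70 in Thy1hi cells, 4.86, 3.47, 5.52 and 1.64 in Thy1- cells and 2.99, 5.42 and 0.990 in Thy1hi YFP+ cells. It was higher in DETCs by 4.76 ± 0.54, 5.25 ± 0.54 and 6.97 ± 0.54 over Thy1hi cells, Thy1- cells and HFSCs (limma adjusted p = 5.53e-07, 1.61e-07 and 2.82e-09). The 3 neighbours are close copies, so reads could be split between them, and exons of *Tnfrsf23* and *Tnfrsf26* overlap those of a gene on the other strand. *Tnfrsf14*, the receptor HVEM for LIGHT, had 48.9, 29.5, 23.7, 31.6 and 18.0 in DETCs, 2.31, 13.0, 5.35 and 7.01 in HFSCs, 11.0, 11.8, 6.50 and 5.82 in Thy1hi cells, 4.86, 13.9, 6.31 and 5.74 in Thy1- cells and 11.0, 2.32 and 5.94 in Thy1hi YFP+ cells. *Tnfrsf18*, the co-stimulatory receptor GITR, was read in every population, with 647, 534, 459, 768 and 514 in DETCs, 163, 171, 171 and 77.1 in HFSCs, 283, 171, 215 and 279 in Thy1hi cells, 153, 172, 218 and 246 in Thy1- cells and 214, 162 and 209 in Thy1hi YFP+ cells. Both had all DETC libraries above the rest. The log2 fold change over Thy1hi cells, Thy1- cells and HFSCs was 1.66 ± 0.48, 1.88 ± 0.48 and 2.09 ± 0.48 for *Tnfrsf14* (limma adjusted p = 0.00899, 0.00422 and 0.00152) and 1.30 ± 0.24, 1.56 ± 0.24 and 2.05 ± 0.24 for *Tnfrsf18* (1.91e-04, 3.23e-05 and 8.26e-07). Exons of *Tnfrsf18* overlap a gene on the opposite strand, and whether the counting used strand is not given in the sources used here.

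The T cell markers give a scale for the counts of these members outside DETCs. The 4 T cell markers stood at 0.214% to 1.09% of their DETC mean in the 4 other populations. Of the 14 members higher in DETCs throughout, 8 came down to that range in at least 1 population, among them *Tnfrsf1b* (0.461% to 1.19% of its DETC mean), *Ltb* (0.295% to 1.33%) and *Tnfrsf9* (0.368% to 1.63%). The other 6 stayed above 1.09% in all 4 populations. Farthest above it were *Tnfrsf18* (24.9% to 40.5%), *Tnfrsf14* (21.1% to 29%), *Tnfsf10* (11.1% to 25.7%) and *Tnf* (5.5% to 12.8%). The part of T cell RNA in the keratinocyte counts of these members was not tested.

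Among the members lower in DETCs, *Eda* encodes ectodysplasin, the ligand of hair follicle and sweat gland formation. It had 28.4, 17.3, 15.8, 5.49 and 19.2 in DETCs, 82.0, 111, 97.3 and 68.0 in HFSCs, 60.7, 56.6, 51.2 and 34.9 in Thy1hi cells, 64.5, 37.0, 37.1 and 42.6 in Thy1- cells and 42.9, 37.9 and 48.5 in Thy1hi YFP+ cells. The DETC libraries were all lower than the others. The log2 fold change was -1.63 ± 0.34 against Thy1hi cells (limma adjusted p = 6.74e-04), -1.46 ± 0.34 against Thy1- cells (0.00212) and -2.44 ± 0.34 against HFSCs (8.22e-06). *Ltbr*, the receptor of the *Lta* and *Ltb* trimer, had 87.1, 57.0, 75.9, 19.2 and 88.9 in DETCs, 127, 143, 172 and 78.5 in HFSCs, 169, 184, 139.8 and 189 in Thy1hi cells, 141, 134, 112 and 166 in Thy1- cells and 212, 145 and 317 in Thy1hi YFP+ cells. It was lower in DETCs, with log2 fold changes of -1.53 ± 0.35, -1.23 ± 0.35 and -1.10 ± 0.35 against Thy1hi cells, Thy1- cells and HFSCs (limma adjusted p = 0.00162, 0.00974 and 0.0169). Only HFSC 4 overlapped the DETC libraries, and the difference from HFSCs lost its call without HFSC 3 (limma adjusted p = 0.0616). Lymphotoxin ligand and receptor reads lay on opposite sides, as did those of *Tnf* and *Tnfrsf1a*. *Tnfrsf1b*, the other TNF receptor, lay on the same side as *Tnf*.

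*Ngfr* (ENSMUSG00000000120.6, chr11:95568818-95587735), the p75 neurotrophin receptor, had 92.0, 72.2, 112, 38.4 and 113 in DETCs, 129, 149.9, 134 and 60.3 in HFSCs, 421, 267, 329 and 507 in Thy1hi cells, 173, 133, 161 and 276 in Thy1- cells and 161, 132 and 298 in Thy1hi YFP+ cells. Its value in Thy1- replicate 4 was 3.28 as deposited and 276 once the column was put back, the only member that moved. In DETCs it was lower than in Thy1hi cells (log2 fold change -2.20 ± 0.34, limma adjusted p = 2.82e-05) and Thy1- cells (-1.15 ± 0.34, 0.0113), a call lost without Thy1- 4 (0.0513). The difference from HFSCs was -0.48 ± 0.34 (0.273). *Tnfrsf19*, the receptor TROY known from hair follicles, had 296, 229, 362, 71.3 and 309 in DETCs, 395, 237, 434 and 428 in HFSCs, 1033, 710.0, 1036 and 1287 in Thy1hi cells, 413, 492, 657 and 873 in Thy1- cells and 651, 379 and 1204 in Thy1hi YFP+ cells. It was lower in DETCs than in Thy1hi cells (-2.16 ± 0.39, 1.85e-04) and Thy1- cells (-1.39 ± 0.39, 0.00891). *Tnfrsf4*, the co-stimulatory receptor OX40, had 61.6, 59.0, 68.0, 46.6 and 73.3 in DETCs, 47.3, 71.7, 79.1 and 55.4 in HFSCs, 152, 117, 108 and 124 in Thy1hi cells, 113, 85.6, 129 and 122 in Thy1- cells and 63.8, 68.1 and 64.4 in Thy1hi YFP+ cells. Although known from T cells, it was lower in DETCs than in Thy1hi cells (-1.02 ± 0.20, 4.38e-04) and Thy1- cells (-0.86 ± 0.20, 0.00238), with no overlap, and its ligand *Tnfsf4* failed the filter.

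Lower in DETCs in part of the comparisons were also *Tnfsf18*, the ligand of GITR, with 3.91, 8.14, 4.74, 0 and 4.80 in DETCs, 0, 5.43, 4.28 and 4.20 in HFSCs, 14.3, 47.4, 37.4 and 7.76 in Thy1hi cells, 77.8, 23.1, 59.2 and 3.28 in Thy1- cells and 1.99, 7.74 and 6.94 in Thy1hi YFP+ cells, and *Tnfsf9*, the ligand of the *Tnfrsf9* receptor, with 27.4, 28.5, 27.7, 11.0 and 28.8 in DETCs, 15.0, 25.0, 19.2 and 2.10 in HFSCs, 124, 50.05, 37.4 and 75.7 in Thy1hi cells, 38.9, 24.3, 31.6 and 32.8 in Thy1- cells and 17.9, 20.1 and 34.7 in Thy1hi YFP+ cells. *Tnfsf18* was called against Thy1hi cells (-2.37 ± 0.83, limma adjusted p = 0.0288) and Thy1- cells (-2.62 ± 0.83, 0.0183), and *Tnfsf9* against Thy1hi cells (-1.43 ± 0.50, 0.0293). Each call was lost without DETC a and without 2 keratinocyte libraries in turn (Thy1hi 2 or 3 and Thy1- 1 or 3 for *Tnfsf18*, adjusted p 0.059 to 0.0964; Thy1hi 1 or 4 for *Tnfsf9*, 0.0692 to 0.124). *Tnfrsf11a*, the RANKL receptor RANK, had 45.01, 41.7, 43.5, 16.5 and 32.4 in DETCs, 63.5, 55.4, 49.2 and 70.8 in HFSCs, 42.0, 47.4, 51.2 and 76.6 in Thy1hi cells, 64.5, 71.7, 57.6 and 95.9 in Thy1- cells and 64.8, 70.4 and 36.7 in Thy1hi YFP+ cells. It was lower in DETCs than in Thy1- cells (-1.05 ± 0.30, 0.00881) and HFSCs (-0.79 ± 0.30, 0.0393), the latter lost without HFSC 1, 2 or 4 or DETC a or b (0.0566 to 0.116). *Eda2r*, a second receptor for ectodysplasin, had 11.7, 25.4, 14.2, 5.49 and 39.6 in DETCs, 5.77, 11.9, 19.2 and 19.6 in HFSCs, 64.0, 27.7, 34.95 and 33.0 in Thy1hi cells, 54.7, 66.0, 30.8 and 39.4 in Thy1- cells and 3.99, 18.6 and 22.8 in Thy1hi YFP+ cells, and was lower in DETCs than in Thy1- cells (-1.47 ± 0.53, 0.0353). Exons of *Tnfsf9* overlap a gene on the opposite strand. For *Eda2r*, leaving out 1 of 6 libraries, DETC 1, 3 or a or Thy1- 1, 2 or 4, ended the call (0.0521 to 0.107).

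DETC a, the library with the lowest keratinocyte marker sum, was the lowest DETC library for all 11 members that were lower in DETCs in at least 1 comparison and higher in none. It was the highest for 9 of the 14 members higher in all 3. The part of keratinocyte RNA in the DETC counts of these members was not tested.

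The remaining called members were higher in DETCs in 1 or 2 comparisons. *Fas*, the death receptor for *Fasl* (chr19:34290659-34327770), had 155, 235, 219.8, 431 and 148 in DETCs, 28.9, 44.5, 48.1 and 50.5 in HFSCs, 203, 253, 237 and 100.9 in Thy1hi cells, 185, 109, 158 and 73.8 in Thy1- cells and 27.9, 102 and 134 in Thy1hi YFP+ cells. Only over HFSCs was it called in DETCs (2.36 ± 0.41, limma adjusted p = 1.18e-04). *Tnfrsf21*, the death receptor known as DR6, had 164, 238, 257, 287 and 223 in DETCs, 105, 103, 105 and 109 in HFSCs, 229.6, 159, 180.5 and 195 in Thy1hi cells, 148, 108, 147 and 127 in Thy1- cells and 197, 132 and 237 in Thy1hi YFP+ cells. It was higher in DETCs than in Thy1- cells (0.80 ± 0.19, 0.00253) and HFSCs (1.12 ± 0.19, 9.47e-05). *Tnfsf14*, the ligand LIGHT, had 17.6, 15.2, 14.2, 1.37 and 4.80 in DETCs, 0, 1.09, 1.07 and 0 in HFSCs, 0, 7.90, 4.06 and 0 in Thy1hi cells, 1.22, 2.31, 0 and 0 in Thy1- cells and 0, 0.770 and 0 in Thy1hi YFP+ cells. It was called over Thy1- cells (2.47 ± 0.76, 0.0152; without Thy1- 3, 0.0515) and HFSCs (2.66 ± 0.76, 0.00826), on at most 18 reads in a library. *Tnfrsf22*, a decoy receptor for TRAIL, had 18.6, 17.3, 20.6, 35.7 and 14.4 in DETCs, 26.6, 5.43, 10.7 and 14.0 in HFSCs, 7.73, 10.5, 12.2 and 20.4 in Thy1hi cells, 7.30, 2.31, 9.47 and 13.9 in Thy1- cells and 15.9, 6.19 and 21.8 in Thy1hi YFP+ cells, and was called over Thy1- cells (1.39 ± 0.50, 0.0351) until DETC 3 or a or Thy1- 1 or 2 was left out (0.0556 to 0.157).

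HFSCs carried less of several members than Thy1hi cells. Few members were called against Thy1- cells, and 0 of these calls held under every alternative. Against Thy1hi cells 10 of the 35 members were called, 9 lower and 1 higher, beside 13.4% of all genes tested (6.86% higher, 6.51% lower). The median log2 fold change of the members was -0.72 and that of all genes -0.02; it was -0.26 with a pseudocount of 10, -0.46 without HFSC 4 and -0.29 without Thy1hi 2. Against Thy1- cells 3 were called, all lower, beside 6.08% of all genes (3.52% higher, 2.56% lower), with medians of -0.37 and -0.04. The first of these medians was -0.22 with a pseudocount of 10, -0.28 without HFSC 4, -0.56 without HFSC 1 and -0.59 without HFSC 2 or Thy1- 3. The libraries of 12 members did not overlap between HFSCs and Thy1hi cells, 10 lower and 2 higher, where 9.46% and 9.81% of all genes tested did not overlap in these directions. Against Thy1- cells the libraries of 4 members lower and 2 higher did not overlap (6.16% and 7.42% of all genes). The basal keratinocyte marker sum was 45870 to 110100 in HFSC, 165400 to 222500 in Thy1hi and 72640 to 117600 in Thy1- libraries, and the Langerhans cell sum had medians of 3031, 824 and 1458. HFSC 4 was the lowest HFSC library for 15 of the 35 members and the highest for 6, and the shares over all genes were not counted. The part of these markers in the differences was not tested.

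The largest decrease among the called members was that of *Tnfsf9* (log2 fold change -2.37 ± 0.53, limma adjusted p = 0.00451, exact permutation p = 0.0286). *Fas* fell in HFSCs against Thy1hi cells (-2.13 ± 0.43, 0.00225) and Thy1- cells (-1.53 ± 0.43, 0.0388), with all HFSC libraries below both. *Ngfr* (-1.72 ± 0.36, 0.00262), *Tnfrsf19* (-1.45 ± 0.41, 0.023) and *Tnfrsf21* (-0.84 ± 0.20, 0.00766) were lower than in Thy1hi cells, and their HFSC libraries did not overlap either. *Tnfrsf4* was lower than in Thy1hi cells (-0.99 ± 0.21, 0.00342) and Thy1- cells (-0.83 ± 0.21, 0.0231). *Tnfrsf26*, at 4 reads in all HFSC libraries together, was lower than in Thy1hi cells (-2.21 ± 0.57, 0.0117) but not past the threshold in edgeR (0.0514). *Tnf* was called against Thy1hi cells (-1.95 ± 0.63, 0.0452) with overlapping libraries.

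The TRAIL death receptor *Tnfrsf10b* had 120.3, 149, 102, 128 and 143 in DETCs, 76.2, 137, 75.9 and 107 in HFSCs, 206, 236, 191 and 136 in Thy1hi cells, 237, 229, 185 and 125 in Thy1- cells and 133, 166 and 97.1 in Thy1hi YFP+ cells. It was lower in HFSCs than in Thy1hi cells (-0.97 ± 0.25, limma adjusted p = 0.0127) and Thy1- cells (-0.96 ± 0.25, 0.025), with overlap in each case. The only member called higher in HFSCs than in Thy1hi cells was *Tnfrsf11b*, the soluble decoy receptor osteoprotegerin, which binds RANKL, with 16.6, 41.7, 27.7, 2.74 and 32.4 in DETCs, 56.6, 144, 102 and 58.9 in HFSCs, 7.73, 13.2, 8.94 and 26.2 in Thy1hi cells, 30.4, 35.9, 40.2 and 27.9 in Thy1- cells and 13.0, 32.5 and 0 in Thy1hi YFP+ cells. It was higher than in Thy1hi cells (2.65 ± 0.82, 0.0353) and, in the other comparison, lower in DETCs than in HFSCs (-2.13 ± 0.77, 0.0333). *Eda* had all HFSC libraries above Thy1hi and Thy1- libraries without passing the threshold (0.81 ± 0.36, 0.144, and 0.98 ± 0.36, 0.105; exact permutation p = 0.0286 for each).

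Single libraries carried part of these calls. Against Thy1hi cells, the call was lost for *Tnf* without HFSC 1 or 4 or Thy1hi 1, 2 or 3 (limma adjusted p 0.086 to 0.131), for *Tnfrsf11b* without HFSC 2 or 3 or Thy1hi 1, 2 or 3 (0.0692 to 0.103), for *Tnfrsf19* without HFSC 2 or Thy1hi 1, 3 or 4 (0.0535 to 0.068) and for *Tnfrsf10b* without Thy1hi 2 (0.0502). Against Thy1- cells the number of members called ran from 0 to 7 as single libraries were left out: *Fas* was lost without HFSC 1, 2 or 3 or Thy1- 1, 2 or 3 (0.0569 to 0.143), *Tnfrsf10b* without HFSC 1 or 3 or Thy1- 1, 2 or 3 (0.0618 to 0.104) and *Tnfrsf4* without HFSC 1 or Thy1- 1 or 3 (0.0688 to 0.0839). Without HFSC 4 and DETC a, the libraries that stood apart in markers, 9 members were called against Thy1- cells, 7 lower and 2 higher. In the decrease of *Tnfrsf11b* from HFSCs to DETCs, the call was lost without HFSC 2 or 3 or DETC 1 or a (0.0511 to 0.107).

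Thy1hi and Thy1- cells, the interfollicular keratinocytes compared in the study, differed in 0 of the 35 members by limma with all 20 libraries, beside 0.337% of all genes tested (0.116% higher, 0.221% lower); 2 members had an unadjusted p under 0.05, and edgeR and DESeq2 called 0 as well. Libraries of the 2 populations with the same replicate number deviated together from their population means (r = 0.293 to 0.716 in the 4 pairs). In pairs with different numbers r ran from -0.651 to 0.514, so the 2 ranges overlap and the pairing is not certain. With the replicate number as a block, 4 members were called, all higher in Thy1hi cells, beside 6.61% of all genes in that fit (3.42% higher, 3.19% lower). They were *Ngfr* (log2 fold change 1.05, blocked limma adjusted p = 0.00111), *Tnfrsf19* (0.77, 0.00894), *Tnfrsf21* (0.53, 0.0431) and *Tnfsf9* (1.02, 0.0444).

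Each of these 4 members was higher in Thy1hi cells in 4 of 4 pairs, the same pairs from which the block had picked them, so this adds no support. *Fas*, *Ltbr*, *Tnfrsf1a* and *Tnfrsf22* were also higher in 4 of 4 pairs but were not called (blocked limma adjusted p 0.0814 to 0.401). The share of all genes with 4 of 4 was not counted. The log2 difference within pairs was 0.87 to 1.28 for *Ngfr*, 0.53 to 1.32 for *Tnfrsf19*, 0.30 to 0.63 for *Tnfrsf21* and 0.24 to 1.64 for *Tnfsf9*. Without the block the limma adjusted p was 0.343, 0.78, 0.469 and 0.752, and the exact permutation p was 0.0571, 0.0571, 0.0286 and 0.0571, where 4 against 4 libraries can reach 0.0286. In the same pairs the basal keratinocyte marker sum was 165400 to 222500 in Thy1hi libraries and 72640 to 117600 in Thy1- libraries. The hair follicle stem cell marker sum was 658 to 942 and 1846 to 2051, and that of differentiated keratinocytes 8707 to 28860 and 27330 to 42130. The fibroblast marker sum (*Col1a1*, *Col1a2*, *Pdgfra*, *Lum*) was 143 to 1436 (median 502) in Thy1hi and 91.8 to 184 (median 142) in Thy1- libraries. Their part in these differences was not tested. The libraries of 1 member did not overlap in each direction, *Tnfrsf21* higher and *Tnfrsf11b* lower in Thy1hi cells (3.59% and 3.17% of all genes).

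**Figure D4:**
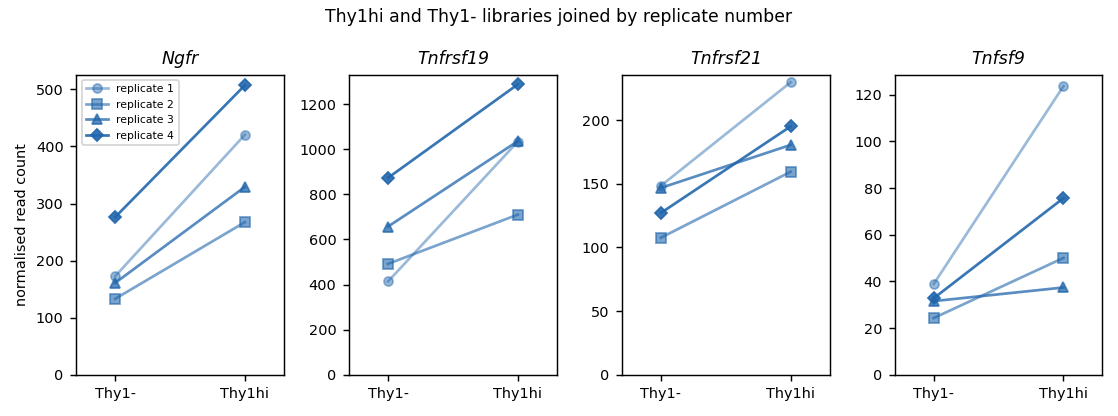
Normalised read counts of the 4 members called with the replicate block, in Thy1- and Thy1hi libraries joined by replicate number. All 4 lines of each member rise towards Thy1hi, and the smallest log2 difference is 0.24 for *Tnfsf9*.

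In Thy1hi YFP+ cells, 0 of the 35 members were called against Thy1hi cells by limma, beside 0.0116% of all genes tested, all of them higher. An unadjusted p under 0.05 was reached by 7 members, edgeR called 0, and DESeq2 called *Tnfrsf4* (log2 fold change -0.94, DESeq2 adjusted p = 0.0147), whose 3 YFP+ counts lay below the 4 Thy1hi counts. By limma the *Tnfrsf4* difference was -0.92 ± 0.23 (adjusted p = 0.193, exact permutation p = 0.0571, the smallest that 3 against 4 libraries allow). Libraries of 6 members did not overlap, all lower in YFP+ cells, where 5.55% of all genes did so, beside 0 higher (4.92% of all genes). The median over the members was -0.73, beside -0.04 over all genes, and depended on the pseudocount (-0.29 with 10) and on YFP+ 3 (-0.42 without it). By mean per kilobase, *Tnfrsf1a* was the first receptor and *Tnfrsf19* the second in both YFP+ and Thy1hi cells. In YFP+ cells *Tnfrsf19* (157 ± 88.8, SD, n = 3) did not lead *Tnfrsf18* (128 ± 19.0) beyond the spread. *Tnfrsf1a* was also first in HFSCs and Thy1- cells.

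The other 5 tested members were called in none of the 7 comparisons. *Cd40*, the receptor of *Cd40lg*, ran from 6.94 to 59 normalised reads over all libraries, *Edar*, the ectodysplasin receptor of hair placodes, from 0 to 16.6, *Tnfrsf12a*, the receptor of TWEAK, from 20.3 to 372, *Tnfrsf23*, a decoy receptor for TRAIL, from 3.5 to 53.8, and *Tnfsf15*, the ligand of the receptor DR3, from 8.69 to 61.9. Their intervals leave room for differences: that of *Cd40* between DETCs and Thy1hi cells was -0.08 to 1.89 on the log2 scale, and that of *Tnfrsf12a* -2.26 to -0.13. All DETC libraries of *Tnfrsf12a* (94.7 to 144) lay below those of Thy1hi (207 to 372), Thy1- (227 to 288) and Thy1hi YFP+ cells (195 to 260). Its 20.3 was HFSC 4, where the other HFSC libraries had 241 to 320. With the replicate block it was called between DETCs and each of Thy1hi cells, Thy1- cells and HFSCs.

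With the block by replicate number, which also paired DETC and HFSC libraries 1 to 3 (r = 0.17 to 0.333), 23 members were called between DETCs and HFSCs. Pairs of these populations with different numbers reached 0.371, so the number did not set the pairs apart. *Ngfr* (blocked limma adjusted p = 0.0467) and *Tnfrsf12a* (5.83e-04), both lower in DETCs, were added and *Tnfrsf11a* (0.268) was lost. That fit leaves out HFSC 4, DETC a and DETC b.

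The 10 members that failed the filter were the ligands *Cd70*, *Tnfsf4*, *Tnfsf12*, *Tnfsf13* and *Tnfsf13b*, the receptors *Tnfrsf8*, *Tnfrsf13c*, *Tnfrsf17* and *Tnfrsf25*, and *Tnfsf13os*. *Tnfrsf25*, the receptor DR3, had 35.7 in HFSC 4 and at most 9.77 elsewhere. *Tnfsf12*, the ligand TWEAK, had 7.83, 21.4, 3.95, 6.86 and 8.41 in DETCs and at most 2.46 elsewhere. *Tnfsf13b*, the ligand BAFF, reached 15.8 in Thy1- 1. The other 7 stayed at or under 9.22 in every library, and *Cd70* and *Tnfsf13* had 0 reads in all HFSC libraries, which allows up to 0.723 normalised reads over that population. *Tnfsf12*, *Tnfsf13* and *Tnfsf13os* share exons with each other or with a read-through gene, so their counts are uncertain.

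The next steps of the pathway were read from 46 genes: *Fasl* and *Relt*, family members that the name rule does not match, and the shedding enzymes, adaptors, kinases, ubiquitin enzymes, death branch and NF-kappaB subunits. Against HFSCs, 33 of the 46 were called in DETCs, 30 higher and 3 lower, beside 39.7% of all genes tested (21.2% higher, 18.5% lower). Against Thy1hi cells 22 were called, 18 higher and 4 lower, beside 36.6% of all genes (19.9% higher, 16.6% lower), and against Thy1- cells 21, 18 higher and 3 lower, beside 34.1% (18.9% and 15.2%). The largest rises over all 3 populations were those of *Traf4*, *Traf1* and *Fasl*. Without its DETC libraries *Fasl* would have failed the filter, which thus favoured its rise and its place in these counts. How many other pathway genes passed in this way was not counted. *Traf1*, an NF-kappaB-induced adaptor, had 623, 472, 509, 853 and 418 in DETCs, 18.5, 42.4, 33.1 and 24.5 in HFSCs, 11.0, 38.2, 13.0 and 14.6 in Thy1hi cells, 35.3, 45.1, 26.8 and 58.2 in Thy1- cells and 7.97, 22.4 and 7.93 in Thy1hi YFP+ cells, and *Traf4*, an adaptor of this family, had 1926, 2108, 1770.1, 3632 and 1590.1 in DETCs, 77.3, 184, 139 and 58.9 in HFSCs, 107, 124, 71.5 and 96.0 in Thy1hi cells, 102, 103, 89.9 and 88.5 in Thy1- cells and 66.8, 80.5 and 31.7 in Thy1hi YFP+ cells. *Fasl*, the ligand of *Fas*, had 111, 90.5, 61.7, 48.0 and 25.2 in DETCs, 3.46, 10.9, 6.41 and 0 in HFSCs, 2.21, 6.59, 5.69 and 2.91 in Thy1hi cells, 7.30, 10.4, 3.16 and 0 in Thy1- cells and 1.99, 9.29 and 0 in Thy1hi YFP+ cells. On the log2 scale DETCs were higher over Thy1hi cells, Thy1- cells and HFSCs by 4.96 ± 0.38, 3.77 ± 0.38 and 4.25 ± 0.38 for *Traf1*, 4.42 ± 0.31, 4.45 ± 0.31 and 4.33 ± 0.31 for *Traf4* and 3.59 ± 0.79, 3.77 ± 0.79 and 3.77 ± 0.79 for *Fasl* (largest limma adjusted p, 0.00109). *Relt*, a lymphoid receptor, was called in all 3 (2.01 ± 0.72, 1.92 ± 0.72 and 2.90 ± 0.72; 0.0325, 0.0438 and 0.00299).

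Lower in DETCs in all 3 comparisons was *Rhbdf1*, a pseudoprotease that escorts the sheddase of TNF (-1.20 ± 0.23, -1.02 ± 0.23 and -0.78 ± 0.23; limma adjusted p = 3.63e-04, 0.00185 and 0.0114). The related gene *Rhbdf2*, named after its values were seen, went the other way. It was higher in DETCs than in Thy1hi cells (1.13 ± 0.21, limma adjusted p = 2.51e-04) and HFSCs (1.05 ± 0.21, 4.83e-04). Against Thy1- cells it was not called (0.40 ± 0.21, 0.157). *Edaradd*, the adaptor of *Edar*, was lower in DETCs than in Thy1hi cells (-1.04 ± 0.25, 0.00208) and Thy1- cells (-0.64 ± 0.25, 0.0483). The other named decreases were the necroptosis effector *Mlkl* against Thy1hi cells (-0.87 ± 0.33, 0.0442), the sheddase *Adam17* against Thy1- cells (-0.52 ± 0.18, 0.0334) and, against HFSCs, *Tab1* (-1.22 ± 0.35, 0.0094) and *Ikbkg* (-0.62 ± 0.20, 0.0164), subunits of the kinase complexes upstream of NF-kappaB.

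HFSCs were lower in 14 of the 46 genes against Thy1hi cells and in 10 against Thy1- cells, and higher in 0 in both (13.4% and 6.08% of all genes tested were called). With only the populations compared in the fit, these counts were 7 and 3, and the count against Thy1- cells was 4, 6 and 5 without Thy1- 1, 2 and 3. Of the 9 NF-kappaB subunits and inhibitors, 7 were lower against Thy1hi cells and 5 against Thy1- cells. *Bcl3*, an IkappaB-like partner of NF-kappaB, had 130.4, 156, 81.2 and 7.71 in HFSCs and 444, 454, 366 and 305 in Thy1hi cells (-2.65 ± 0.57, limma adjusted p = 0.00342). *Ripk3*, the kinase of necroptosis, had 57.7, 79.3, 77.0 and 14.7 and 424, 461, 343 and 129 (-2.64 ± 0.46, 5.02e-04), and *Tnfaip3*, the NF-kappaB-induced inhibitor A20, 2583, 2852, 3033 and 220.0 and 6957, 6529, 9768 and 5869 (-2.26 ± 0.55, 0.00893). HFSC 4 was the lowest library in all 3. The same 3 genes differed from Thy1- cells by -2.25 ± 0.57, -2.10 ± 0.46 and -2.10 ± 0.55 (0.0212, 0.00841 and 0.0277). *Fasl* and *Relt* were called in neither (-0.18 and -0.89 against Thy1hi cells, -0.00 and -0.98 against Thy1- cells).

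**Figure D5:**
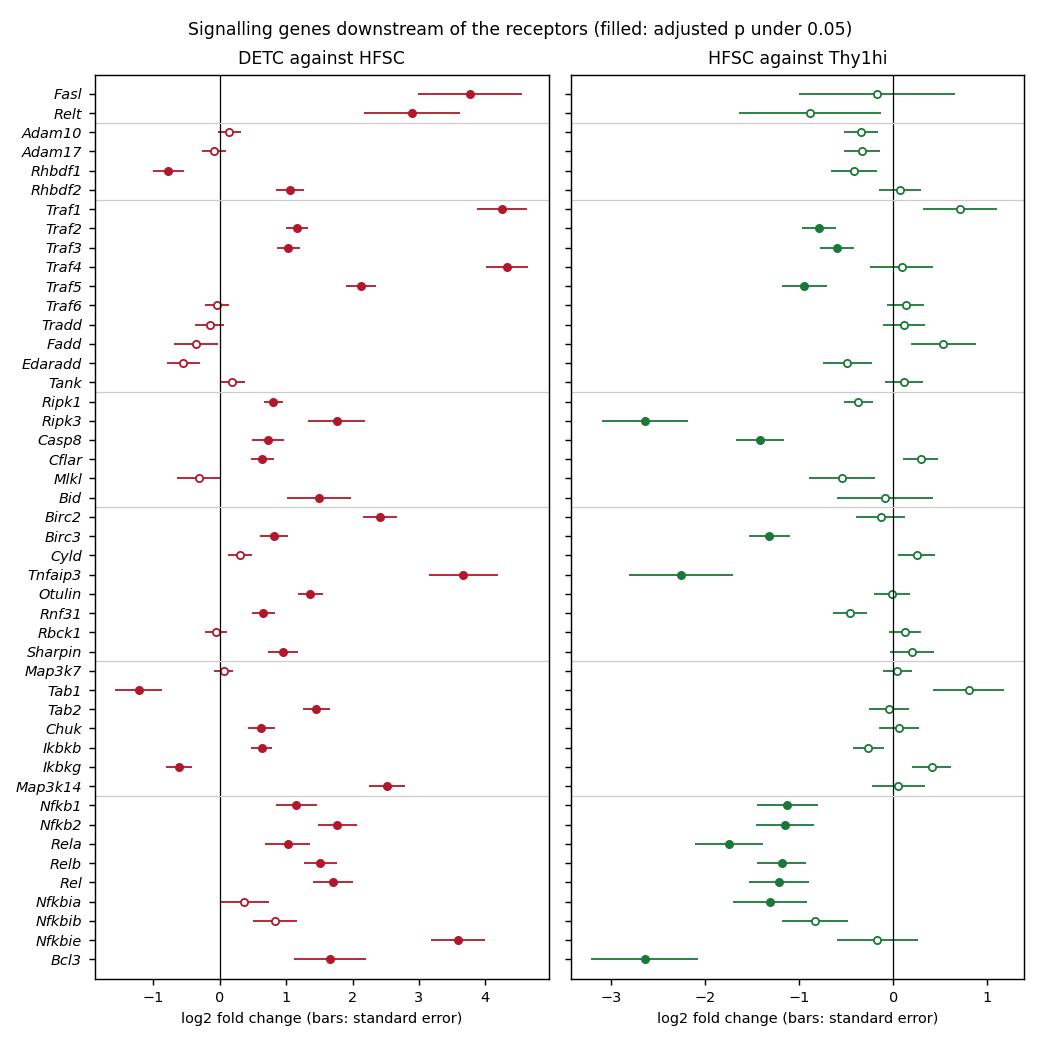
Log2 fold changes with standard errors of the 46 pathway genes, grouped by step from the family members *Fasl* and *Relt* at the top to NF-kappaB at the bottom, for DETCs against HFSCs (left) and HFSCs against Thy1hi cells (right); filled points passed the limma threshold of 0.05. On the left 30 filled points lie right of 0, and on the right all 14 filled points lie left of 0.

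Between Thy1hi and Thy1- cells, 0 of the 46 pathway genes were called; with the replicate block *Rhbdf2* was lower in Thy1hi cells (log2 fold change -0.72, blocked limma adjusted p = 0.00341). *Fasl* and *Relt* differed by 0.17 ± 0.83 and -0.09 ± 0.76. In Thy1hi YFP+ against Thy1hi cells 0 were called by limma, *Fasl* and *Relt* differed by -0.68 ± 0.90 and -0.56 ± 0.82, and DESeq2 called *Mlkl*, higher in YFP+ cells (log2 fold change 1.71, DESeq2 adjusted p = 0.00166).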

How the data were processed

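Epidermal cells from mouse dorsal skin were sorted with antibodies to integrin-α6, Sca1, CD90.2 (Thy1) and CD34, none of them against a member of the family, and their RNA was sequenced. Per the labels and the study's methods, the authors aligned reads with STAR to mm10, counted them per gene with featureCounts and normalised them with DESeq2. The deposited values are thus a signal per gene, the read count divided by a size factor per library, and not raw counts. Dividing by the value of 1 read gave whole numbers in 100% of the cells (to within 0.0051 of the deposited value), and so the reads themselves, with size factors of 0.729 to 1.43. The ribosomal RNA gene *Rn45s* held 13.1% to 41.5% of the reads. In the column of Thy1- replicate 4, the values of 3212 genes stood beside other gene names. Putting them back in the order of names sorted without hyphens raised their correlation (on log2, across the tested genes among them) with the other Thy1- libraries from 0.056 to 0.93.

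Groups followed the labels, and 2 DETC columns whose numbers match no title were used as libraries of that group, named a and b. The 17204 genes that reached a value of 10 in 3 or more libraries entered limma 3.58.1 (R 4.3.3) on log2(value + 1), with 1 mean per population, all 20 libraries and a trend. P-values were two-sided and adjusted by Benjamini-Hochberg over all genes tested. Single members were also compared by an exact permutation test of 2 groups of libraries. The replicate number was taken to pair libraries where all same-numbered pairs correlated above 0.1 in their deviations, which held for Thy1hi with Thy1- (4 pairs) and for HFSC with DETC (3 pairs). Differently numbered pairs of these populations also reached 0.514 and 0.371. Alternatives were edgeR 4.0.16 and DESeq2 1.42.0 on the recovered reads, other pseudocounts, filters and scalings, and libraries left out. All 3 tools were tested on simulated data. Levels per kilobase used GENCODE M21 exon lengths, and promoter windows came from RefSeq on GRCm38.p6. Members called in at least 1 comparison are given in every library. Of the pathway list, the 3 largest rises and 3 largest falls among called genes are named, with *Fasl* and *Relt*. The members and lists were chosen with earlier results of these data known.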

Additional observations from a re-analysis of the deposited data

Results flagged for a closer look

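Within populations of 4 or 5 libraries, 139 sets of values were searched for 1 library far from the others by Dixon's ratio, and 14 were found. The cut-offs give about 1 in 20 by chance for independent, normally distributed values. These counts were not transformed, the sets share libraries, and a set with 1 library above 0 is always flagged. The 14 can therefore not be set against a chance share. DETC a held 6 of them: *Tnfrsf1b* at 8173 (other DETC libraries 4166 to 5216), *Tnfrsf26* at 445.9 (119.4 to 165.7), *Tnfsf10* at 474.7 (196.8 to 272), *Lta* at 46.65 (14.41 to 22.14) and *Tnfrsf22* at 35.67 (14.41 to 20.55) stood above, and *Tnfsf9* at 10.98 (27.4 to 28.82) below. *Cd40lg* was low in DETC b at 40.83 (98.79 to 120.2), and *Edar* was high in DETC 1 at 16.63 (3.6 to 6.32). In HFSC 4, *Tnfrsf18* was low at 77.07 (162.8 to 171.1), and *Tnfrsf26* had 2.8 where the other HFSC libraries had 0. *Lta* had 6.59 in Thy1hi 2 and 2.43 in Thy1- 1 where the others of each population had 0. *Tnfrsf12a* was high in Thy1- 1 at 288.2 (227.2 to 230.3), and *Tnfrsf14* in Thy1- 2 at 13.88 (4.86 to 6.31).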

How the results depend on the processing

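Of the members called in DETCs, 20 of 22 against Thy1hi cells, 19 of 26 against Thy1- cells and 19 of 22 against HFSCs passed the threshold under every alternative in which they were tested, as did 2 of 10 for HFSCs against Thy1hi cells and 0 of 3 against Thy1- cells. One direction reversed: in the deposited row order *Ngfr* was 0.35 higher in DETCs than in Thy1- cells (limma adjusted p = 0.765). The number of members called for HFSCs against Thy1- cells (3) moved to 6 with a pseudocount of 10, 0 without a filter, 7 rescaled to equal totals, 5 rescaled without *Rn45s*, 5 with edgeR, 7 with DESeq2, 1 with only these populations, 7 without both keratinocyte libraries numbered 4 and 9 without HFSC 4 and DETC a; the cause was not tested. Rescaling to equal totals shifted the median of all genes by -0.12 for Thy1hi against Thy1- cells, -0.21 for HFSCs against Thy1- cells and -0.18 for DETCs against Thy1- cells. Rescaling without *Rn45s* and leaving out HFSC 4 with DETC a were chosen after seeing the data. With a mean of at least 50, where fewer members are tested, 13, 15 and 13 members were called in DETCs against Thy1hi cells, Thy1- cells and HFSCs. Under that filter the members' median log2 fold change was 0.25 against Thy1hi cells and 1.58 against HFSCs, and for HFSCs against Thy1- cells -0.66, and without a filter it was 0.38 for DETCs against Thy1- cells. With DESeq2, 1 member and 1 pathway gene were called in Thy1hi YFP+ cells, and 1 pathway gene with a pseudocount of 10. With only the populations compared, 7 pathway genes were called for HFSCs against Thy1hi cells and 3 against Thy1- cells.

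With the replicate block, 4 members and 1 pathway gene were called between Thy1hi and Thy1- cells. HFSC and keratinocyte libraries share only a number (r = -0.232 to 0.165 over same-numbered pairs), and there the block left 5 members against Thy1hi cells, and 0 members and 3 pathway genes against Thy1- cells. In DETCs it gave 27 members against Thy1hi cells and 28 against Thy1- cells, whose same-numbered pairs did not deviate together either (r = -0.22 to 0.147). Leaving out each library in turn gave 0 to 7 members and 4 to 13 pathway genes for HFSCs against Thy1- cells, and 7 to 12 members against Thy1hi cells. Members on few reads outside DETCs, among them *Lta*, *Ltb*, *Tnfrsf26*, *Cd27*, *Cd40lg*, *Tnfsf8* and *Tnfsf11*, are limited by depth, as is *Tnfsf14* throughout. Their fold changes depend on the pseudocount.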
